A study of Homo sapiens with 18 samples.

Results

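Gene families with segmentally duplicated copies were followed through RNA sequencing of LNCaP cells, an androgen-responsive prostate cancer line. The 8 families are NPIPA, NPIPB, GOLGA6, GOLGA8, RGPD, WASH, NBPF and TBC1D3. Members were taken by symbol and by a total of at least 10 estimated counts over all 17 libraries, and 63 of 111 matching genes were kept, out of 34912 genes in all. The families were chosen by their knockdown fold changes and calls in earlier results of these libraries, so the counts of members called in the knockdown comparisons are a description. The kept members number 5 of 17 for GOLGA6, 8 of 20 for GOLGA8, 6 of 6 for NPIPA, 10 of 15 for NPIPB, 2 of 12 for TBC1D3, 12 of 12 for WASH (which by symbol takes in WASHC3, WASHC4 and WASHC5, single-copy subunits of the WASH complex), 14 of 22 for NBPF and 6 of 7 for RGPD. Just inside the limit lay NBPF2P, GOLGA8H and GOLGA6L22 with 10.4, 16.9 and 17.4 counts, and just outside lay TBC1D3I, GOLGA8M and GOLGA8K with 9.99, 8.03 and 7.89 counts.

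The experiment addressed how the transcription factors NFYA and KLF5 bear on gene expression in these cells with and without androgen. NFYA is a DNA-contacting subunit of NF-Y, which binds the CCAAT box, and KLF5 is a zinc-finger factor that binds GC-rich CACCC-type sites. Cells were transfected with a pool of siRNAs against NFYA, a pool against KLF5 or a control siRNA, and all groups were deprived of steroids for 48 h in medium with 5% charcoal-stripped serum. The synthetic androgen R1881 (10 nM) or its vehicle (96% ethanol) was then given for 24 h. The 6 groups were siNFYA, siKLF5 and control siRNA, each with R1881 and each with vehicle, with 3 libraries a group except siKLF5 with vehicle, of which 2 libraries were analysed here. Nothing states that the libraries of a group came from separate cultures, so p-values measure the spread between these samples, which may be technical.

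Libraries held 4416650 to 6872420 estimated counts (to 6 digits), of which members took 0.0865% to 0.133%. The line's luminal markers were present, with a median of at least 1 TPM (a transcript level scaled by length and library) for 9 of 9 luminal genes, against 0 of 3 basal, 2 of 3 neuronal, 3 of 5 stromal and 1 of 4 blood genes, and KRT5, CD3E and HBB were listed at 0 TPM in every library. NFYA mRNA was lower with siNFYA by log2 fold changes of -0.62 with vehicle and -0.62 with R1881 (edgeR's quasi-likelihood test, adjusted p = 4.07e-07 and 2.37e-07). KLF5 mRNA was lower with siKLF5 in R1881 (-1.15, adjusted p = 0.000228), while with vehicle its change of -1.08 did not pass (adjusted p = 0.149). Counts on retained-intron transcripts, which keep intron sequence in the annotation, made up 2.56% to 3.05% of a library with siNFYA, 2.28% to 2.68% with siKLF5 and 1.96% to 2.23% with control siRNA. Mitochondrial transcripts made up 2.54% to 3.00% with siNFYA, 2.20% to 2.96% with siKLF5 and 1.33% to 2.07% with control siRNA. A further noncoding gene, AC010970.1, took 2.85% of siNFYA vehicle replicate 3 and between 0.0902% and 0.424% of each other library. The retained-intron and mitochondrial shares moved with the knockdown groups, AC010970.1 was high in 1 library, and their part in the results below was not tested. In bulk RNA, fewer cells of a kind and less RNA per cell cannot be told apart.

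Segmental duplications are long, nearly identical blocks of DNA that were copied to other places of the genome, many of them in the primate lineage. The families studied here sit in such blocks. NPIP genes ride on the core duplicons of chromosome 16, and golgin genes of the GOLGA6 and GOLGA8 groups on those of chromosome 15. NBPF genes with their repeated Olduvai domains lie on chromosome 1. RGPD genes lie on chromosome 2, which also holds their parent RANBP2, and TBC1D3 genes on chromosome 17. Copies of WASH1, a subunit of the endosomal complex that turns on the Arp2/3 actin nucleator, lie near the ends of several chromosomes. Reads from such copies often match more than 1 gene, and a count for a copy is then an estimate of how the reads divide.

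Some of the copies are nearly identical in their coding sequences in GENCODE v29, so that a short read from them can match more than 1 gene. How many reads did so was not measured. RGPD5 and RGPD6 are identical over all 5295 coding bases, and each differs from RGPD8 at 10 of them. Their coding bases 2797 to 2856 are shown because the RGPD results turn on this pair, with capitals at the bases where RGPD5 and RGPD6 differ from RGPD8:
RGPD5: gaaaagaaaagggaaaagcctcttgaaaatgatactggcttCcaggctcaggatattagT
RGPD6: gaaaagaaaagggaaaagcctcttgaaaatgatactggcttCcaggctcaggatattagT
RGPD8: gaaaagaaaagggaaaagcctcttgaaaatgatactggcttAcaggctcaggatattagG
GOLGA8A and GOLGA8B, the golgins with the largest knockdown differences, mismatch at 3 of 1893 aligned coding bases, 1 of which is capitalised in coding bases 18 to 77:
GOLGA8A: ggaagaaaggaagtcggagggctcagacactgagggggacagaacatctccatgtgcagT
GOLGA8B: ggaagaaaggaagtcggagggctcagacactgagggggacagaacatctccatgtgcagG
For NPIPB3 and NPIPB4, which are compared below, the alignment covers the 1260 coding bases of NPIPB3 but only a part of the 3414 of NPIPB4. They mismatch at 3 of the 1260 aligned bases, and all 3 are capitalised in this stretch. It starts at coding base 331 of NPIPB3 and 979 of NPIPB4:
NPIPB3: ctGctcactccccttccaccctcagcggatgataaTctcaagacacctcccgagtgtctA
NPIPB4: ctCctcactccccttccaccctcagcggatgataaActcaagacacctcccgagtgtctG

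Over all 63 members, a median of 82.0% of the 31-base words of a gene's transcripts also occurred in another copy. RGPD6 shared 100% of its words and RGPD5 93.4%, against 8.60% for WASH5P and 0% for the single-copy subunits WASHC3, WASHC4 and WASHC5. Because of this sharing, counts were also summed over each family, which takes out the division of reads among its own members. Genes outside the name rule share sequence too, as NPIPA1 did for 65.4% of its words with AC138969.1 and NBPF19 for 47.6% with NOTCH2NL, and the sums still depend on how reads were divided with those. Sums were less variable than copies in the RGPD family: the coefficient of variation within groups was 7.22% for the family sum, 57.5% for RGPD6 and 53.9% for RGPD5.

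**Figure D1:**
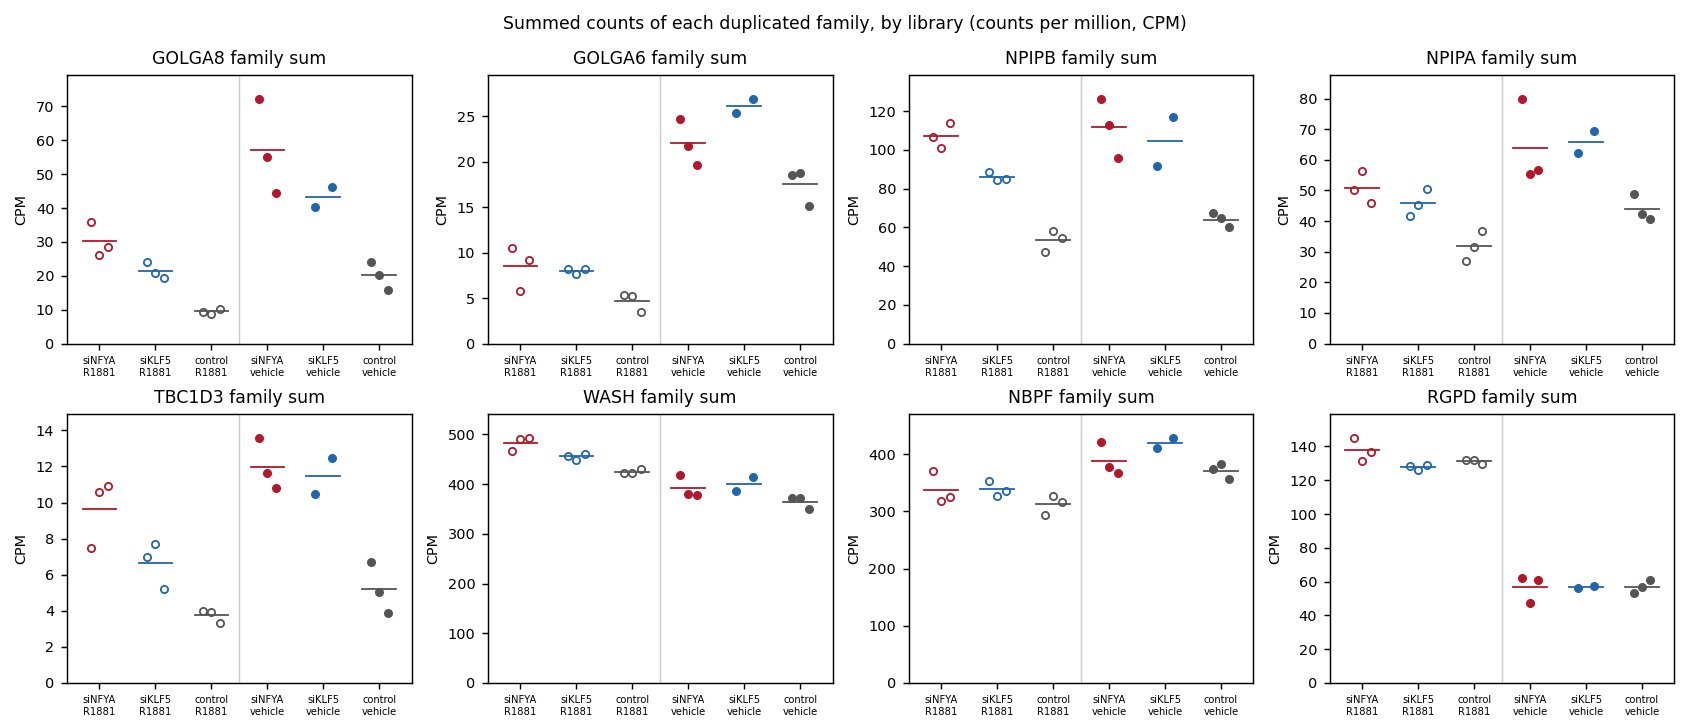
Summed CPM (counts scaled to a common library size) of the 8 families, 1 panel each. Points are libraries and bars are group means, with R1881 groups (open points) left of vehicle groups (filled points). The RGPD sum lay between 126 and 145 CPM in every R1881 library, against 47.3 to 61.8 CPM in every vehicle library, and the GOLGA8 means of both knockdowns lay above the control mean at each treatment.

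GOLGA8A, GOLGA8B, WASH5P, NPIPB3, NPIPB4 and NPIPB5 were called higher with siNFYA and with siKLF5 at both treatments. TBC1D3L and NPIPA1 were called in part of these comparisons, no GOLGA6 gene was called in any, and the RGPD sum did not pass. With siNFYA and vehicle, 17 of 46 tested members were higher and 2 lower (36.96% and 4.35%), against 6.67% higher and 6.79% lower among all genes tested. With siNFYA and R1881, 15 of 46 were higher and 0 lower, against 2.63% and 3.33% of all genes; no member had an unadjusted p under 0.05 for a decrease. With siKLF5 and vehicle, 11 of 47 were higher and 1 lower, against 0.77% and 0.55% of all genes (1.32% in either direction). With siKLF5 and R1881, 8 of 47 were higher and 1 lower, against 0.832% and 0.55% of all genes. The median log2 fold change over tested members was 0.40, 0.43, 0.38 and 0.44 in these 4 comparisons, beside -0.00, -0.02, -0.01 and 0.00 over all genes tested. Members that passed the filter on low counts are not all members: 17 of 63 with siNFYA and 16 of 63 with siKLF5 were left untested. The siNFYA and siKLF5 comparisons at the same treatment share their control libraries, so each is given for itself.

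Each library was left out in turn for the called members that the naming rule takes up. With siNFYA and vehicle, 9 of 18 kept their call every time: GOLGA8A, GOLGA8B, NBPF9, NPIPB3, NPIPB4, NPIPB5, TBC1D3L, WASH5P and WASH6P. With siNFYA and R1881, 12 of 15 did: GOLGA8A, GOLGA8B, NBPF9, NBPF12, NPIPA7, NPIPB3, NPIPB4, NPIPB5, NPIPB14P, TBC1D3L, WASH5P and WASH6P. With siKLF5 and vehicle, 3 of 12 did (GOLGA8B, NPIPB3 and WASH5P), and with siKLF5 and R1881, 2 of 9 did (GOLGA8B and WASH5P). Without siKLF5 vehicle replicate 3, 4 members were called with siKLF5 and vehicle, and without control vehicle replicate 3, 7 were. With siKLF5 and R1881, 4 were called without control replicate 1 or any 1 of the siKLF5 replicates. On log2(TPM + 1) values with limma, 7 members with siNFYA and vehicle, 6 with siNFYA and R1881, and 0 with siKLF5 at either treatment passed.

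**Figure D2:**
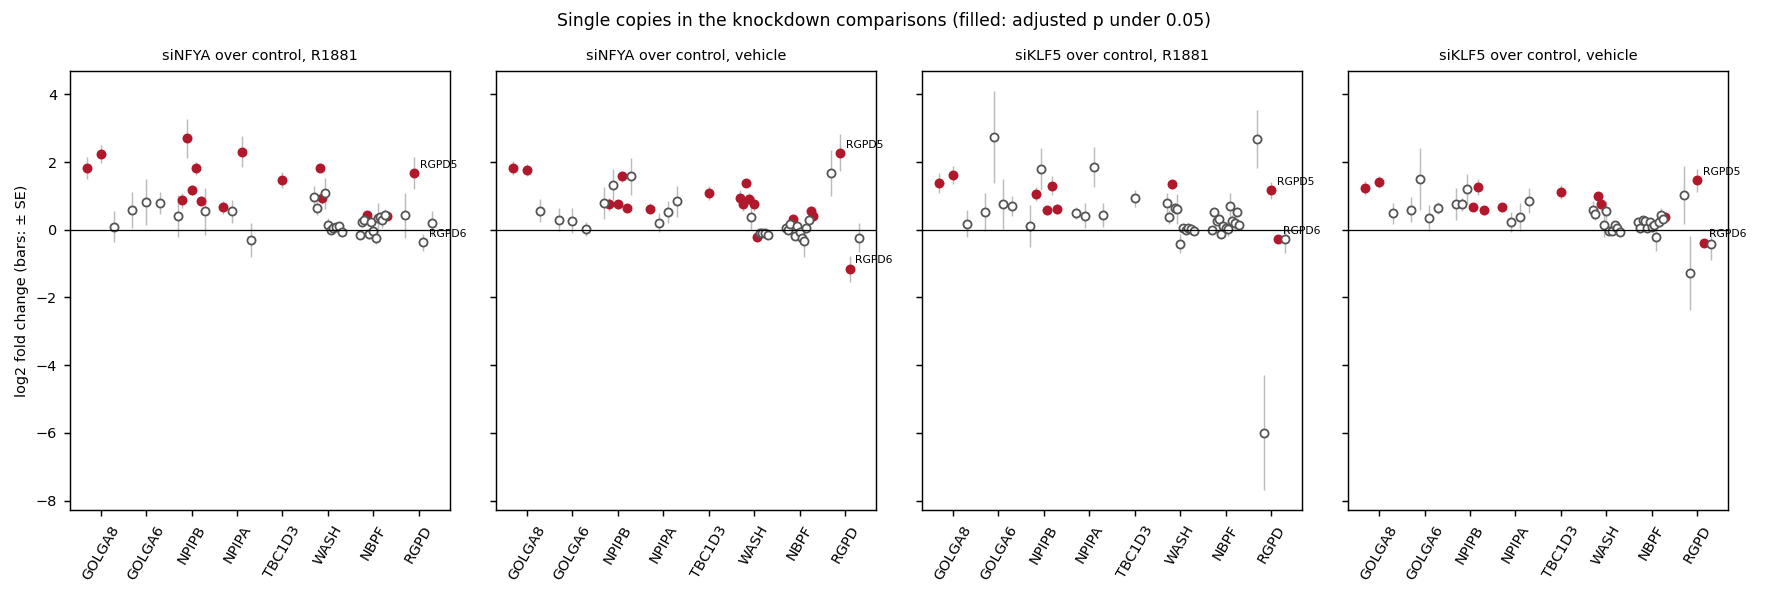
Log2 fold changes of every tested member, grouped by family, for siNFYA and siKLF5 over control siRNA with R1881 and with vehicle; error bars are ± SE and filled points passed at adjusted p under 0.05. Each panel has filled GOLGA8, NPIPB and WASH points above 0, and RGPD5 and RGPD6, the named points, lie on opposite sides of 0.

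Among the golgins, coiled-coil proteins related to the Golgi tethers, GOLGA8A (chr15:34379068-34437466, minus strand, GRCh38, ENSG00000175265) showed clear separation. GOLGA8A had 33.4, 25.9 and 14.1 CPM with siNFYA and 12.8 and 20.2 CPM with siKLF5, against 9.20, 5.76 and 6.17 CPM with control siRNA, all with vehicle. With R1881 it had 12.8, 11.0 and 9.36 CPM with siNFYA and 8.74, 8.85 and 6.25 CPM with siKLF5, against 2.47, 3.47 and 3.37 CPM with control siRNA. Neither knockdown overlapped control at either treatment. The log2 fold changes against control were 1.82 (SE 0.218, adjusted p = 3.78e-06) with siNFYA and vehicle, 1.84 (SE 0.325, adjusted p = 0.000898) with siNFYA and R1881, 1.22 (SE 0.205, adjusted p = 0.00283) with siKLF5 and vehicle, and 1.38 (SE 0.286, adjusted p = 0.0124) with siKLF5 and R1881, by edgeR's quasi-likelihood test. Without siKLF5 vehicle replicate 3 the siKLF5 value with vehicle was 0.86 and did not pass, and the siKLF5 call in R1881 was lost without control replicate 1 or siKLF5 replicate 1 or 2.

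GOLGA8B (chr15:34525207-34588503, minus strand, ENSG00000215252), its near-identical neighbour, had 32.0, 23.0 and 26.3 CPM with siNFYA and 21.9 and 20.6 CPM with siKLF5, against 9.48, 9.29 and 5.10 CPM with control siRNA and vehicle. In R1881 its values were 19.5, 11.6 and 14.8 CPM with siNFYA and 12.1, 8.26 and 9.21 CPM with siKLF5, against 4.14, 2.71 and 2.87 CPM with control siRNA. Again no knockdown library reached down to a control library of the same treatment. Its log2 fold changes were 1.77 and 2.24 with siNFYA (vehicle, then R1881) and 1.42 and 1.60 with siKLF5, with adjusted p of 4.98e-07, 4.99e-06, 0.000193 and 0.00144. The third tested GOLGA8 gene, GOLGA8N (ENSG00000232653), did not pass in any of the 4, with log2 values of 0.56, 0.10, 0.49 and 0.18. The remaining 5 kept GOLGA8 genes stayed at or under 1.64 CPM in every library and were not tested.

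The GOLGA8 family sum gave 57.2 ± 14.0 CPM with siNFYA and 43.3 ± 4.14 CPM with siKLF5, against 20.1 ± 4.16 CPM with control siRNA, with vehicle (SD, n = 3, 2 and 3). With R1881 the sum was 30.2 ± 5.06 CPM with siNFYA and 21.4 ± 2.33 CPM with siKLF5, against 9.53 ± 0.765 CPM with control siRNA (SD, n = 3 each). The log2 fold changes of the sum were 1.53 and 1.67 with siNFYA (vehicle, then R1881) and 1.11 and 1.19 with siKLF5, and all 4 passed. In the fits with families summed, 4 of 8 sums were higher with siNFYA and vehicle, 6 with siNFYA and R1881, 5 with siKLF5 and vehicle, and 3 with siKLF5 and R1881, against 6.63%, 2.61%, 0.701% and 0.796% of all units tested. None of the 8 sums was lower, against 6.78% of all units with siNFYA and vehicle, and with siNFYA and R1881 5.92% of units passed in either direction; no sum had an unadjusted p under 0.05 for a decrease in these comparisons.

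Most of the GOLGA8 difference sat on retained-intron transcripts. Parting the family by transcript type, an addition made after the data were seen, gave retained-intron sums of 56.0, 42.7 and 36.3 CPM with siNFYA and 33.0 and 36.0 CPM with siKLF5, against 17.2, 14.1 and 8.40 CPM with control siRNA, all with vehicle. The remaining GOLGA8 transcripts gave 15.0, 11.7 and 8.15 CPM with siNFYA and 8.01 and 10.8 CPM with siKLF5, against 7.51, 6.70 and 7.89 CPM with control siRNA. Neither kind of transcript overlapped between knockdown and control libraries with vehicle, by a wide margin for the retained-intron sums and a narrow one for the others. With R1881 the retained-intron sums were 29.9, 20.9 and 19.9 CPM with siNFYA and 16.8, 15.7 and 9.92 CPM with siKLF5, against 4.70, 3.52 and 3.64 CPM with control siRNA. The other transcripts then gave 6.04, 5.02 and 8.57 CPM with siNFYA and 7.03, 5.04 and 9.26 CPM with siKLF5, against 4.59, 5.15 and 6.49 CPM with control siRNA, and these groups overlapped.

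In that fit the retained-intron sum rose in all 4 comparisons, by 1.83 and 2.57 on the log2 scale with siNFYA and by 1.40 and 1.86 with siKLF5 (vehicle, then R1881). The other GOLGA8 transcripts passed with siNFYA and vehicle (0.73) and had values of 0.22, 0.37 and 0.36 in the other 3. Retained-intron transcripts held 79.7% ± 1.74 of the family's counts with siNFYA and 78.7% with siKLF5, against 63.0% ± 9.95 with control siRNA, with vehicle; with R1881 the shares were 77.9% ± 7.05 with siNFYA, 66.0% ± 12.6 with siKLF5 and 42.4% ± 7.47 with control siRNA (SD, n = 3, and 2 for siKLF5 with vehicle). Without retained-intron transcripts, the GOLGA8B value changed sign, to -0.63 (SE 0.531) with siNFYA and R1881 and -0.45 (SE 0.637) with siKLF5 and vehicle. Neither passed (edgeR adjusted p = 0.602 and 0.856), so a fall of its remaining transcripts was not shown. Whether the transcripts themselves or the division of reads between a transcript and its copy differed was not tested.

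**Figure D3:**
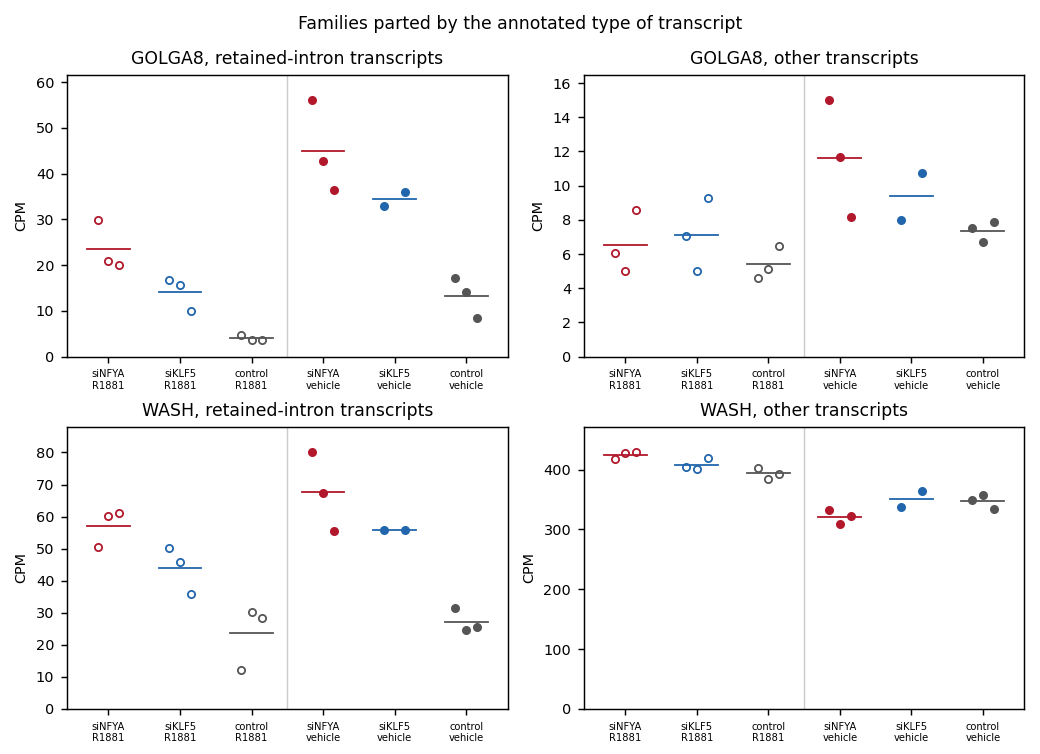
CPM of the GOLGA8 and WASH families parted into retained-intron transcripts (left panels) and other transcripts (right panels). Points are libraries, bars are group means, open points are R1881 and filled points vehicle. The retained-intron sums of GOLGA8 were 19.9 to 29.9 CPM with siNFYA and 9.92 to 16.8 CPM with siKLF5, against 3.52 to 4.70 CPM with control siRNA, all with R1881.

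Across all families, the medians of the 12 tested retained-intron transcripts were 1.45 and 1.67 with siNFYA and 0.78 and 1.25 with siKLF5 (vehicle, then R1881), and those of protein-coding ones -0.02, 0.17, 0.25 and 0.07. Of the 12, 11, 11, 12 and 11 had positive log2 values with siNFYA and vehicle, siNFYA and R1881, siKLF5 and vehicle, and siKLF5 and R1881. The retained-intron share of whole libraries rose too, with means of 2.87% with siNFYA and 2.59% with siKLF5, against 2.18% with control siRNA and vehicle. With R1881 these means were 2.62%, 2.34% and 1.96%. A median over all retained-intron transcripts is not given here, so these values do not show a trait particular to the families. Single transcripts seldom passed: 1 of 109 with siNFYA and vehicle, 4 of 109 with siNFYA and R1881, 0 of 115 with siKLF5 and vehicle, and 1 of 115 with siKLF5 and R1881, all higher, against 0.178%, 0.381%, 0.00262% and 0.0603% of all transcripts. In the comparison with 0 calls, 9 transcripts were higher and 3 lower at an unadjusted p under 0.05 by edgeR, the tool run at transcript level. A retained-intron transcript of WASH5P, ENST00000633719, accounted for a call in each of the other 3, with log2 values of 1.53 and 2.00 with siNFYA and 1.43 with siKLF5 and R1881. The others, with siNFYA and R1881, were a further WASH5P transcript, ENST00000632506 (1.88), a retained-intron transcript of NPIPA1, ENST00000534720 (3.04), and the protein-coding NPIPB3 transcript ENST00000542817 (1.23).

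GOLGA6 genes, the sister golgin group, showed less. None of the 3 tested with siNFYA or the 4 tested with siKLF5 passed, with log2 values of 0.02 to 0.30 with siNFYA and vehicle for GOLGA6L5P, GOLGA6L10 and GOLGA6L9. Their unadjusted p was under 0.05 for 0 and 1 members with siNFYA (vehicle, then R1881) and for 1 and 1 with siKLF5. The GOLGA6 sum had 24.7, 21.7 and 19.7 CPM with siNFYA and 25.4 and 26.9 CPM with siKLF5, against 18.6, 18.8 and 15.1 CPM with control siRNA and vehicle. It was higher with siKLF5 and vehicle (log2 0.58, adjusted p = 0.0115) and with siNFYA and R1881 (log2 0.85, adjusted p = 0.0285), and it missed with siKLF5 and R1881 (0.78, adjusted p = 0.0544) and with siNFYA and vehicle (0.34, adjusted p = 0.0960). The call with siNFYA and R1881 was lost without any of 5 of the 6 libraries, and that with siKLF5 and vehicle without control replicate 3 or siKLF5 replicate 3.

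NPIPB genes, members of the nuclear pore complex interacting protein family whose cellular role is poorly known, were higher in both knockdowns. NPIPB4 (chr16:21834569-21880827, minus strand) had 12.9, 11.2 and 13.2 CPM with siNFYA and 7.34 and 12.6 CPM with siKLF5, against 4.42, 4.45 and 3.54 CPM with control siRNA and vehicle. With R1881 it had 9.34, 10.3 and 10.4 CPM with siNFYA and 8.07, 5.97 and 7.02 CPM with siKLF5, against 3.16, 3.06 and 2.33 CPM with control siRNA. No knockdown library overlapped a control library of its treatment. The log2 fold changes were 1.58 and 1.81 with siNFYA (adjusted p = 7.47e-07 and 1.95e-06; vehicle, then R1881) and 1.25 and 1.30 with siKLF5 (adjusted p = 0.00694 and 0.0157). Without siKLF5 vehicle replicate 3 the vehicle value was 0.80 and did not pass, and the R1881 call was lost without control replicate 2 or 3 or siKLF5 replicate 1 or 3.

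NPIPB3 (chr16:21402237-21448567, minus strand) had 26.5, 25.6 and 19.5 CPM with siNFYA and 23.1 and 22.3 CPM with siKLF5, against 17.1, 12.6 and 13.4 CPM with control siRNA and vehicle. In R1881, NPIPB3 had 26.4, 21.0 and 25.9 CPM with siNFYA and 15.9, 16.3 and 15.4 CPM with siKLF5, against 10.2, 10.6 and 11.5 CPM with control siRNA. Its libraries formed 3 separate ranges in R1881, with siNFYA above siKLF5 and siKLF5 above control. The log2 fold changes were 0.75 and 1.18 with siNFYA and 0.66 and 0.57 with siKLF5, all past the threshold, though the last (adjusted p = 0.0423) was lost without any 1 of the 6 libraries.

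NPIPB5 (chr16:22479121-22536521, plus strand), the member of the group with the highest level per length (36.9 TPM on average over all libraries), rose by 0.64 and 0.86 with siNFYA and by 0.58 and 0.61 with siKLF5 on the log2 scale. Both siKLF5 calls of NPIPB5 were fragile: without siKLF5 vehicle replicate 3 the vehicle change was 0.26. NPIPB12 passed with siNFYA (0.75 and 0.87) and with siKLF5 and R1881 (1.05), but not with siKLF5 and vehicle (0.75, adjusted p = 0.0667). NPIPB14P, a pseudogene, passed only with siNFYA and R1881 (2.70, SE 0.579, adjusted p = 0.00544), where it had 3.54, 1.44 and 3.99 CPM, against 0.189, 0.753 and 0.396 CPM with control siRNA. Whether its changes differ between the comparisons was covered by the interaction test, which it did not pass.

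The NPIPB sum was 112 ± 15.4 CPM with siNFYA and 104 ± 17.7 CPM with siKLF5, against 64.0 ± 3.70 CPM with control siRNA and vehicle, and 107 ± 6.49 and 86.0 ± 2.37 CPM with siNFYA and siKLF5, against 53.2 ± 5.43 CPM with control siRNA and R1881 (SD, n = 3, and 2 for siKLF5 with vehicle). Groups did not overlap, and the log2 fold changes of 0.82, 1.01, 0.70 and 0.71 (siNFYA with vehicle and R1881, then siKLF5 with vehicle and R1881) all passed. The transcripts other than retained-intron ones gave 0.80, 1.00, 0.71 and 0.70, all past the threshold. The retained-intron part rose by 1.53 and 1.75 with siNFYA, but it was low, which limits these values. With vehicle it had 6.24, 2.55 and 2.21 CPM with siNFYA, so replicate 1 weighed most in the rise. With R1881 it had 2.89, 2.39 and 2.01 CPM with siNFYA. The control values are given below. With siKLF5 that part was too low for the test: it had 1.02 and 2.26 CPM with siKLF5, against 1.33 ± 0.220 CPM with control siRNA (SD, n = 3) and vehicle, and these groups overlapped. In R1881 it had 1.79, 1.64 and 1.35 CPM with siKLF5, against 0.398, 0.796 and 0.872 CPM with control siRNA.

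NPIPA1 (chr16:14922802-14952060, plus strand), which held 69.5% of the NPIPA counts, had 56.8, 38.4 and 39.1 CPM with siNFYA and 47.0 and 45.7 CPM with siKLF5, against 37.0, 25.0 and 26.3 CPM with control siRNA and vehicle. In R1881, NPIPA1 had 35.7, 41.8 and 28.7 CPM with siNFYA and 30.2, 31.6 and 32.7 CPM with siKLF5, against 17.1, 19.1 and 31.8 CPM with control siRNA. In R1881 control replicate 3 lay inside the knockdown ranges. NPIPA1 passed with siNFYA (0.62 and 0.66) and with siKLF5 and vehicle (0.66), and had 0.49 (adjusted p = 0.184) with siKLF5 and R1881. NPIPA7 passed with siNFYA and R1881 (2.31, adjusted p = 0.00254), where control replicate 3 had 0 counts.

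The NPIPA sum was higher in all 4 comparisons, by 0.56 and 0.69 with siNFYA and 0.58 and 0.54 with siKLF5 on the log2 scale. It averaged 64.0 ± 13.7 CPM with siNFYA and 65.9 ± 5.25 CPM with siKLF5, against 43.9 ± 4.44 CPM with control siRNA and vehicle, and 50.8 ± 5.14 CPM with siNFYA and 45.9 ± 4.31 CPM with siKLF5, against 31.8 ± 4.96 CPM with control siRNA, in R1881 (SD, n as above). Both parts of the family moved in most comparisons: other transcripts changed by 0.50, 0.58, 0.58 and 0.48, and retained-intron transcripts by 1.46 and 3.13 with siNFYA and 2.36 with siKLF5 and R1881, while their 0.76 with siKLF5 and vehicle did not pass. The retained-intron part was low, which limits its values in R1881. There it had 3.61, 4.98 and 5.01 CPM with siNFYA and 3.65, 2.03 and 2.26 CPM with siKLF5, against 0.255, 0.862 and 0.448 CPM with control siRNA. The siKLF5 call of the sum in R1881 was lost without control replicate 1 (0.43) or siKLF5 replicate 3 (0.47).

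TBC1D3 genes encode hominoid proteins with a TBC domain, a fold shared with Rab GTPase-activating proteins. TBC1D3L (chr17:37977972-37989048, minus strand), which held 87.5% of the family's counts, had 11.3, 10.3 and 8.15 CPM with siNFYA and 9.26 and 11.2 CPM with siKLF5, against 5.86, 4.54 and 3.85 CPM with control siRNA and vehicle. In R1881, TBC1D3L had 6.02, 9.52 and 10.5 CPM with siNFYA and 6.16, 6.74 and 4.51 CPM with siKLF5, against 2.86, 3.25 and 3.31 CPM with control siRNA. Knockdown and control libraries did not overlap at either treatment. It passed with siNFYA (1.08 and 1.47) and with siKLF5 and vehicle (1.11), and had 0.93 (adjusted p = 0.0795) with siKLF5 and R1881. The family sum gave 1.22, 1.37 and 1.14 in the comparisons that passed, and 0.85 (adjusted p = 0.106) with siKLF5 and R1881. Without siKLF5 vehicle replicate 3 its value with siKLF5 and vehicle was 1.01 and did not pass.

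In the WASH group, WASH5P (chr19:60951-71626, minus strand, ENSG00000282458), a transcribed pseudogene copy of WASH1, had the smallest adjusted p of any member in each of the 4 knockdown comparisons. WASH5P had 73.3, 63.2 and 53.4 CPM with siNFYA and 46.2 and 53.6 CPM with siKLF5, against 28.0, 21.6 and 25.0 CPM with control siRNA and vehicle. With R1881 it had 48.8, 49.5 and 48.5 CPM with siNFYA and 38.6, 35.9 and 28.3 CPM with siKLF5, against 12.5, 12.9 and 16.1 CPM with control siRNA. The groups stood apart at both treatments. Its log2 fold changes were 1.37 (SE 0.102, adjusted p = 3.80e-09) and 1.84 (SE 0.128, adjusted p = 4.07e-10) with siNFYA, and 1.01 (SE 0.112, adjusted p = 2.27e-05) and 1.34 (SE 0.140, adjusted p = 2.13e-06) with siKLF5, for vehicle and then R1881. Of its words, 8.60% were shared with other copies.

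The other copies moved less. With siNFYA and vehicle, WASHC1, which codes for WASH1 itself, rose by 0.75, WASH2P by 0.92, WASH3P by 0.75 and WASH6P by 0.92, and the calls of WASHC1, WASH2P and WASH3P were each lost when some single libraries were left out. WASH6P also passed with siNFYA and R1881 (0.93) and with siKLF5 and vehicle (0.75). WASHC2A, a copy of the large subunit that anchors the complex to retromer, fell by 0.21 with siNFYA and vehicle (adjusted p = 0.0486), and its twin WASHC2C had -0.09. The single-copy subunits WASHC3, WASHC4 and WASHC5 passed in none of the 4 comparisons, with log2 values between -0.16 and 0.14.

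Parting the WASH family into its components, also added after the data were seen, separated these patterns. The WASH1 copies together had 131, 107 and 95.6 CPM with siNFYA and 91.9 and 96.8 CPM with siKLF5, against 60.9, 51.2 and 55.3 CPM with control siRNA and vehicle. With R1881 they had 96.8, 87.3 and 90.4 CPM with siNFYA and 77.6, 67.6 and 59.4 CPM with siKLF5, against 37.9, 40.7 and 40.3 CPM with control siRNA. Groups did not overlap, and the log2 fold changes were 1.06 and 1.19 with siNFYA and 0.78 and 0.79 with siKLF5, with adjusted p of at most 9.39e-06. The sum of WASHC2A and WASHC2C changed by -0.15 (adjusted p = 0.0454), 0.02, -0.04 and 0.04. The whole WASH sum changed by 0.12, 0.19, 0.14 and 0.12, of which the siNFYA value with R1881 passed. Retained-intron transcripts of the whole group rose by 1.38, 1.26, 1.05 and 0.91, while its other transcripts had -0.05, 0.10, 0.03 and 0.05 and did not pass. Those other transcripts take in WASHC2A, WASHC2C, WASHC3, WASHC4 and WASHC5, which were not called higher with either siRNA. The WASH1 copies alone were not parted by transcript type, so these values do not show which of their transcripts rose.

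NBPF genes, whose products carry Olduvai domains and whose number rose in human evolution, were mostly near control. With siNFYA, NBPF9 rose by 0.42 with vehicle and 0.41 with R1881, NBPF12 by 0.31 and 0.43, and NBPF8 by 0.56 with vehicle, and with siKLF5 NBPF9 had 0.38 with vehicle (adjusted p = 0.0498). The other 10 tested NBPF genes passed in none of the 4 comparisons. NBPF12 had 35.2, 35.3 and 35.9 CPM with siNFYA and 33.1 and 35.4 CPM with siKLF5, against 29.6, 27.5 and 29.4 CPM with control siRNA and vehicle, so that neither knockdown overlapped control although the siKLF5 change of 0.25 did not pass. The family sum averaged 388 ± 28.8 CPM with siNFYA and 419 ± 12.5 CPM with siKLF5, against 371 ± 13.0 CPM with control siRNA and vehicle, and its changes of 0.07, 0.12, 0.17 and 0.13 did not pass. Its retained-intron transcripts rose by 1.73 and 1.37 with siNFYA and by 1.41 with siKLF5 and vehicle, and had 0.53 with siKLF5 and R1881.

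RGPD genes carry a copy of RANBP2, a nuclear pore protein that binds Ran, joined to a GRIP domain. RGPD5 (chr2:109792758-109857695, plus strand) and RGPD6 (chr2:110513812-110577185, minus strand) moved in opposite directions. RGPD5 had 3.49, 36.8 and 54.3 CPM with siNFYA and 17.5 and 17.9 CPM with siKLF5, against 3.07, 5.54 and 10.6 CPM with control siRNA and vehicle. RGPD6 had 49.8, 7.25 and 2.15 CPM in the same siNFYA libraries and 35.0 and 35.1 CPM in the siKLF5 ones, against 45.6, 46.5 and 44.4 CPM with control siRNA. The siNFYA libraries thus split, with replicate 1 like the controls and replicates 2 and 3 reversed.

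The sum of the pair varied less than either gene. RGPD5 and RGPD6 together gave 53.3, 44.0 and 56.5 CPM with siNFYA and 52.5 and 52.9 CPM with siKLF5, against 48.6, 52.1 and 55.0 CPM with control siRNA and vehicle. The share of RGPD5 in the pair was 6.55%, 83.5% and 96.2% with siNFYA and 33.3% and 33.8% with siKLF5, against 6.32%, 10.6% and 19.2% with control siRNA. With R1881 the pair gave 134, 124 and 126 CPM with siNFYA and 122, 120 and 120 CPM with siKLF5, against 122, 123 and 126 CPM with control siRNA. RGPD5 was called higher in all 4 comparisons (2.27, 1.67, 1.46 and 1.16) and RGPD6 lower in 3 (-1.15 with siNFYA and vehicle, -0.38 and -0.27 with siKLF5), but each of these calls was lost without some single library. The RGPD family sum changed by -0.00 and 0.08 with siNFYA and by -0.00 and -0.02 with siKLF5, with adjusted p of at least 0.550. Since the coding sequences of RGPD5 and RGPD6 are the same base for base, the change of either gene alone is uncertain.

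**Figure D4:**
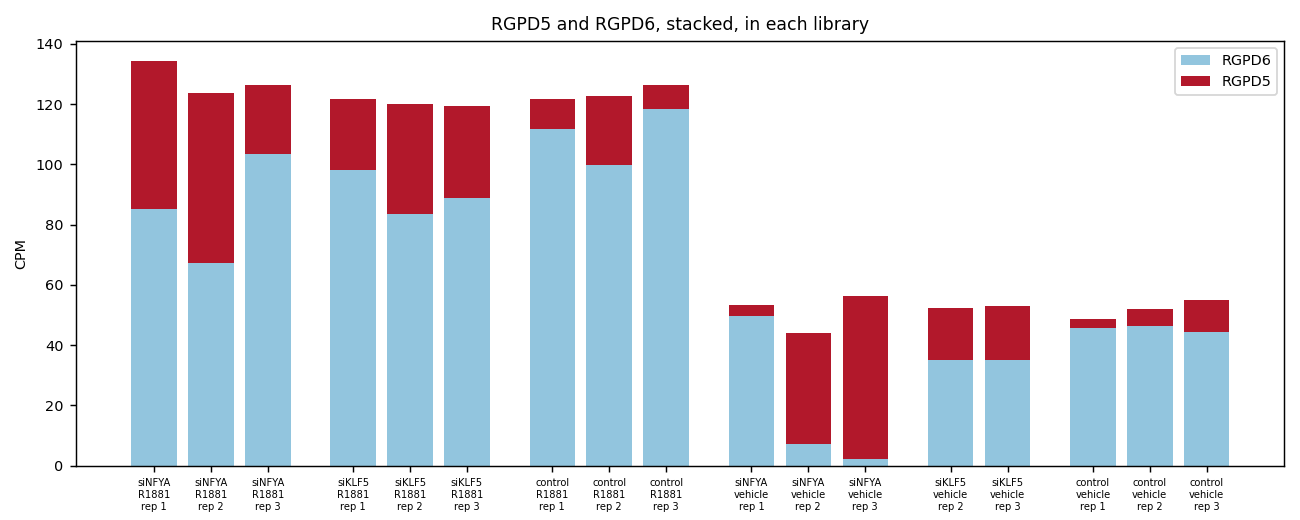
CPM of RGPD5 and RGPD6 stacked in each library, with siNFYA, siKLF5 and control siRNA at each treatment. The bars' total heights stay between 44.0 and 56.5 CPM with vehicle and between 120 and 134 CPM with R1881, while the part given to RGPD5 runs from 6.32% to 96.2%.

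Androgen moved the families in different directions. In control cells, R1881 lowered 17 and raised 3 of 46 tested members, against 30.8% lower and 32.2% higher among all genes, so the rising share was under and the falling share near the background. Of the family sums, 5 were lower and 2 higher, against 30.9% and 32.2% of all units tested. With siNFYA 12 members were lower and 7 higher of 46 (62.1% of all genes in either direction, 31.2% higher), and with siKLF5 20 were lower and 6 higher of 47 (28.4% and 30.7% of all genes, 59.2% together). Each siRNA has its own R1881 and vehicle libraries.

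The RGPD sum rose under all 3 siRNAs. With siNFYA it had 145, 132 and 137 CPM with R1881, against 61.8, 47.3 and 61.1 CPM with vehicle. With siKLF5 it had 128, 126 and 129 CPM with R1881, against 56.4 and 57.3 CPM with vehicle. Control cells had 132, 132 and 130 CPM with R1881, against 53.0, 56.6 and 61.1 CPM with vehicle. No R1881 library came near a vehicle library. The log2 fold changes were 1.28 (SE 0.0733), 1.17 (SE 0.0619) and 1.20 (SE 0.0702) in siNFYA, siKLF5 and control cells, with adjusted p of 4.98e-14, 1.05e-13 and 7.48e-14. RANBP2, the parent gene, also rose in control cells (0.98, adjusted p = 1.28e-16).

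WASHC3 (chr12:102012927-102062149, minus strand), a small subunit of the WASH complex and the member with the highest level per length (148 TPM on average), had 91.6, 95.4 and 105 CPM with R1881, against 34.2, 33.0 and 32.0 CPM with vehicle in control cells. It rose by 1.73 with siNFYA, 1.46 with siKLF5 and 1.55 in control cells, each past the threshold, whereas WASHC5 had 0.03, -0.04 and -0.07. The sum of WASH1 copies went the other way, by -0.31 with siNFYA, -0.43 with siKLF5 and -0.44 in control cells (adjusted p = 0.000836). WASHC1, a part of that sum, was called higher in control cells (0.53, adjusted p = 0.0374), a call lost without control R1881 replicate 1 (0.27) or any 1 of the vehicle replicates, and had -0.09 with siNFYA and -0.46 with siKLF5. The whole WASH sum gave 0.29, 0.18 and 0.22 in that order, and its direction in control cells turned to -0.05 without WASHC3, WASHC4 and WASHC5. It also turned to -0.02 when libraries were scaled by their totals, a scaling that moved the median of all genes to -0.25 in that comparison.

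Golgins fell with R1881. The GOLGA6 sum had 5.28, 5.25 and 3.51 CPM with R1881, against 18.6, 18.8 and 15.1 CPM with vehicle in control cells, a log2 change of -1.90 (SE 0.189, adjusted p = 2.67e-09), and it changed by -1.40 with siNFYA and -1.70 with siKLF5. GOLGA6L9 (chr15:82430018-82439153, plus strand) had 2.25, 3.34 and 1.35 CPM with R1881, against 8.02, 9.17 and 8.33 CPM with vehicle in control cells, with no overlap and a change of -1.85 (adjusted p = 1.67e-06). GOLGA6L5P and GOLGA6L10 fell by 2.53 and by 1.52, and both were low with R1881, where GOLGA6L5P had 0.241 counts in control replicate 2 and GOLGA6L10 had 0 in control replicate 3. Without R1881 replicate 3 their values were -3.90 and -0.95, and both still passed. The GOLGA8 sum changed by -0.94 with siNFYA, -1.01 with siKLF5 and -1.08 in control cells, and without its retained-intron transcripts the change in control cells was -0.38 and did not pass. GOLGA8B fell by 1.30 on the log2 scale, and without retained-intron transcripts its value was 0.68 (SE 0.504) and did not pass (edgeR adjusted p = 0.248).

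Of the NBPF genes, NBPF20, singled out after its values were seen, fell, with 8.34, 8.40 and 8.89 CPM with R1881, against 17.7, 20.6 and 18.4 CPM with vehicle in control cells. Its log2 fold changes were -1.13 with siNFYA, -1.27 with siKLF5 and -1.15 in control cells, each past the threshold. NBPF9 fell by 0.55, 0.77 and 0.54 on the log2 scale in the same order. NBPF12 went up, by 0.30 with siNFYA and 0.22 with siKLF5, while its 0.18 in control cells did not pass and its siKLF5 value turned to -0.01 under scaling by library totals. The NBPF sum changed by -0.21, -0.31 and -0.26, NPIPA by -0.34, -0.53 and -0.47, NPIPB by -0.07, -0.28 and -0.27, and TBC1D3 by -0.33, -0.78 and -0.47, in siNFYA, siKLF5 and control cells; the siNFYA values of NPIPB and TBC1D3 and the control value of TBC1D3 did not pass.

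**Figure D5:**
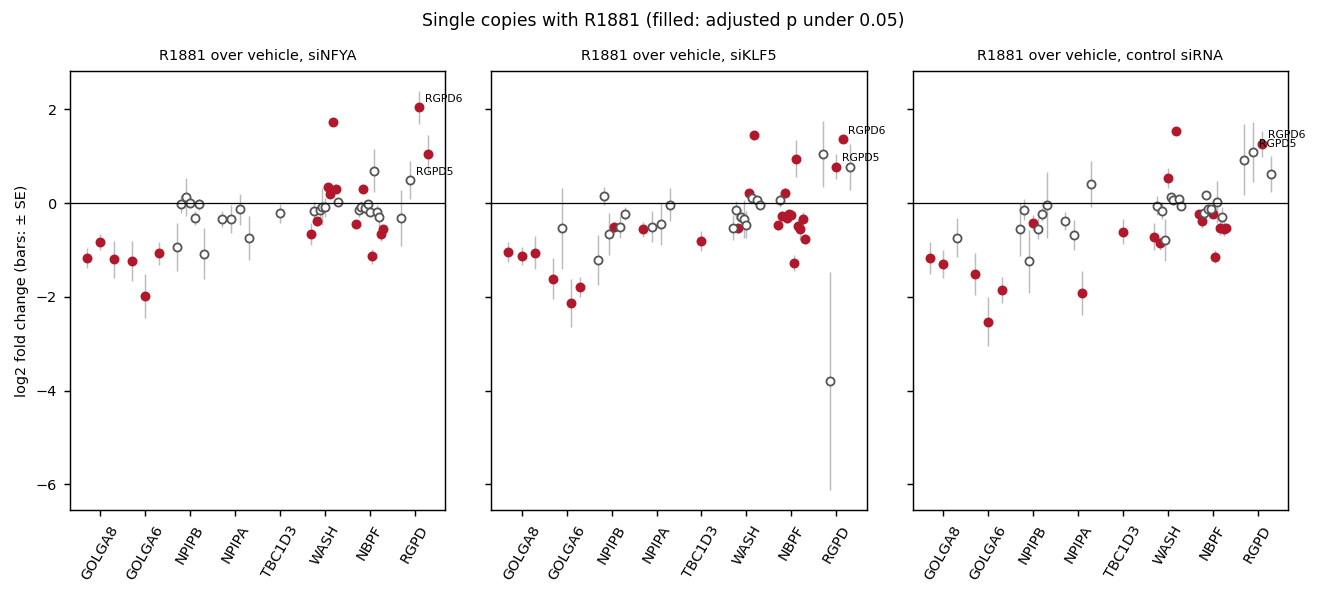
Log2 fold changes of every tested member, grouped by family, for R1881 over vehicle with siNFYA, siKLF5 and control siRNA; error bars are ± SE and filled points passed at adjusted p under 0.05. Every GOLGA6 and GOLGA8 point lies below 0 in the 3 panels, and RGPD6, named, lies above 0 in each.

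No knockdown was shown to change the response of a member to R1881. In the test of the interaction, 0 of 46 members passed with siNFYA and 0 of 47 with siKLF5 by edgeR, against 0.738% and 0.0157% of all genes. At an unadjusted p under 0.05 there were 4 higher and 1 lower with siNFYA and 1 higher and 1 lower with siKLF5, and DESeq2 passed 0 of the 9 members for which it gave an adjusted p with siNFYA. With no filter on low counts, 3 members passed with siNFYA. None of the 8 family sums passed, and their smallest adjusted p was 0.482 with siNFYA and 0.915 with siKLF5; at an unadjusted p under 0.05 there were 0.

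The 2 knockdowns were also set against each other, in a fit that held the libraries of both. With vehicle, 0 of 50 members passed, against 2.35% higher and 3.64% lower among all genes (5.99% in all), with 3 higher and 5 lower at an unadjusted p under 0.05 and 0 of 16 by DESeq2. With R1881, 3 of 50 were higher with siNFYA and 0 lower, against 1.49% and 2.33% of all genes (3.82% in all). These were NPIPB3 (log2 0.62, SE 0.132, adjusted p = 0.00667), WASH5P (0.51, SE 0.117, adjusted p = 0.0125) and RGPD2, a low-count copy. Without siKLF5 replicate 3, the value of WASH5P was 0.40 and did not pass. RGPD2 had 2.14, 2.81 and 0.294 CPM with siNFYA, against 0 counts in all 3 siKLF5 libraries, which is at least 8.88-fold higher against a floor of 3 counts over the group. RGPD1, which holds 94.6% of the words of RGPD2, lay the other way, with 0, 0.587 and 14.0 counts with siNFYA, against 7.46, 13.8 and 10.4 counts with siKLF5, so the division of reads between these copies moved with the RGPD2 difference and its part was not tested. The RGPD2 call was lost in 5 of 6 fits that left out 1 library, all but that without siNFYA replicate 3. In the same libraries control siRNA gave 1.95, 2.15 and 0 CPM. The NPIPB sum was higher by 0.32 (SE 0.0905, adjusted p = 0.0468), and this call was lost without any 1 of the 6 libraries. The sum of WASH1 copies was higher by 0.41 with R1881 (adjusted p = 0.0145) and had 0.28 with vehicle (adjusted p = 0.0689).

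Lists of genes around the families are given beside the shares of all genes called, which were 6.67% higher and 6.79% lower with siNFYA and vehicle, 2.63% and 3.33% with siNFYA and R1881, 0.77% and 0.55% with siKLF5 and vehicle, and 0.832% and 0.55% with siKLF5 and R1881. Of 17 relatives outside the name rule, such as RANBP2, GOLGA2 and TBC1D5, 1 was higher and 3 lower with siNFYA and vehicle. The counts were 0 and 2 with siNFYA and R1881, 1 and 0 with siKLF5 and vehicle, and 0 and 0 with siKLF5 and R1881. Some of these relatives share sequence with members, as NOTCH2 holds 43.8% of the words of NBPF19. The medians of this list were -0.06, -0.03, -0.01 and 0.03. PKD1, the kidney polycystin gene, was the higher one, at 0.75 with siNFYA (edgeR adjusted p = 6.23e-06) and 0.50 with siKLF5 (adjusted p = 0.00115), both with vehicle. Its pseudogene copies lie in the same chromosome 16 blocks as NPIP. The division of reads between PKD1 and these copies was not tested. RANBP2 fell by 0.17 with siNFYA and vehicle.

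Partners of the WASH complex, of retromer and of Arp2/3 numbered 25, and 7 fell with siNFYA and vehicle, among them SNX6 (-0.20), VPS26A (-0.19), SNX2 (-0.18) and CAPZA1 (-0.16), with a list median of -0.05; none passed in the other 3 comparisons. Among 23 nuclear pore partners of RANBP2, NUP93 was lower with siNFYA and vehicle (-0.20) and NUP153 with siNFYA and R1881 (-0.22), and the list medians in the 4 comparisons were 0.01, -0.04, -0.01 and 0.02. Of 23 genes of Golgi structure, ARFGAP1, which ends the ARF1 cycle at the Golgi, was higher with siNFYA (0.55 and 0.28) and with siKLF5 and vehicle (0.37), while RAB6A (-0.25) and CUX1 (-0.16) were lower with siNFYA and vehicle. Of 57 genes of other duplicated families, 51 were tested with siNFYA and 50 with siKLF5. There, 3 were higher and 3 lower with siNFYA and vehicle, 2 and 1 with siNFYA and R1881, 0 and 0 with siKLF5 and vehicle, and 1 and 0 with siKLF5 and R1881, with medians of 0.07, 0.07, 0.04 and 0.10. SLX1A (1.14) and SERF1A (0.82) were the largest rises with siNFYA and vehicle, and SLX1B (2.38) with siNFYA and R1881. These are single copies of duplicated genes, and the division of reads between such copies was not tested.

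With R1881 in control cells, where 32.2% of all genes were higher and 30.8% lower (63.0% in all), 16 of 23 Golgi genes were higher and 2 lower (median 0.55), 11 and 1 of 17 relatives (median 0.27), 13 and 5 of 25 WASH partners (median 0.12), 2 and 18 of 23 nuclear pore genes (median -0.30), and 10 and 17 of 51 other duplicated genes (median -0.24), beside a median of -0.01 over all genes. The full-length golgins GOLGA2 (1.42), GOLGA4 (1.29) and GOLGB1 (1.05), which tether vesicles at the Golgi, were among those that rose, in the same cells in which the GOLGA6 and GOLGA8 sums fell. CAPZB, a subunit of the actin capping protein that sits in the WASH complex, rose by 1.98.

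Promoters of the members were read because NF-Y binds CCAAT. Windows were read for 40 of the 63 members, 48 windows in all, from the RefSeq promoter table (GRCh38.p14, 250 bases before to 50 after the start). Members without a window here may still have an entry in that table, so the shares describe the windows read. The letters CCAAT, on either strand, occurred in 31.2% of these member windows and in 34.6% of the 35116 windows of all genes. CACCC occurred in 62.5% and 59.9%, and GGGCGG in 41.7% and 45.0%. The golgins differed among themselves: 6 of 7 GOLGA8 genes with a window and 3 of 4 GOLGA6 genes held CCAAT, whereas GOLGA8B, 4 NPIPA genes and 2 TBC1D3 genes held none, and GOLGA8A is not in the table. In 9 golgins the motif stands in a shared stretch. Of these, 6 are shown because they let the copies be compared, followed by NPIPB3 and NPIPB4, which share a different stretch, with the motif in capitals:
GOLGA8N: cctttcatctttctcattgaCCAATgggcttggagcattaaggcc
GOLGA8H: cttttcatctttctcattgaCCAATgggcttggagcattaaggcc
GOLGA8S: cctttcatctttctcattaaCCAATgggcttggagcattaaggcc
GOLGA6L10: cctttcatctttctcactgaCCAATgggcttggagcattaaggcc
GOLGA6L22: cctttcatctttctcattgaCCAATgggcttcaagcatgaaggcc
GOLGA6L4: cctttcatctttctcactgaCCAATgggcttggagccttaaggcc
NPIPB3: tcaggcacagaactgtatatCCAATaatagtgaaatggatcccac
NPIPB4: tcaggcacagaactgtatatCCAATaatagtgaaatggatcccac
The GOLGA8N stretch lies at chr15:32593360-32593404 on the plus strand, with its motif at position -76 from the start, and GOLGA8Q and GOLGA8R carry the same 45 bases. The NPIPB3 and NPIPB4 stretches lie at chr16:21425429-21425473 and chr16:21857709-21857753, both on the minus strand. Their motifs stand at -75 and 23 from the starts used for the windows, so that of NPIPB4 lies after its start. Both stretches lie well inside the gene spans given above, so these windows are not at the outer starts of the annotated genes. With siNFYA and vehicle, members with and without the motif were called higher. GOLGA8N, with the motif, had a log2 fold change of 0.56 and was not called, whereas NPIPB3 and NPIPB4, also with it, were called higher. GOLGA8B, without it in its window, had 1.77 and was called higher, as was TBC1D3L, also without it. These genes are examples, and whether the motif goes with the changes was not tested. A match of these letters is a description of the window and says nothing of binding.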

How the data were processed

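RNA was sequenced from 17 libraries of LNCaP cells. Per the submitters' processing notes, reads were handled with FastQC, Trimmomatic, kallisto and DESeq2 on GRCh38; tool versions, and whether the strand of the directional kit was used in counting, are not given in these sources. The authors deposited estimated counts and TPM per gene and transcript. Estimated counts were rounded and tested with edgeR 4.0.16 (quasi-likelihood, TMM, filterByExpr, R 4.3.3), and p-values were adjusted over all genes by Benjamini-Hochberg, with a threshold of 0.05. The siNFYA and siKLF5 tables were fitted separately, each with its controls, and jointly for siNFYA against siKLF5. Family sums replaced their members in a second fit. CPM are TMM-scaled.

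Members and lists were chosen with earlier results of these data known. Named genes are the 3 members a family with the highest mean TPM, up to 20 called in a knockdown, the 5 largest rises and falls with R1881, those beside the count limit, and those called in an interaction or between knockdowns. NBPF20, WASHC2A, WASHC2C, WASHC4 and RGPD1 fall outside this rule and were named after their values were seen. Alternatives were DESeq2 1.42.0, limma 3.58.1 on log2(TPM + 1), library-total scaling, other filters, no retained-intron transcripts and leaving out each library. On simulated data, 86.9% of genes changed by 1 on the log2 scale were recovered for siNFYA with vehicle (12601 genes), and 85.6% for siKLF5 with vehicle (12733 genes). For changes of 0.5 the shares were 72.9% and 70.8%, with 13 and 17 false calls. The changed genes were drawn at random and shared no reads, so these shares do not describe duplicated copies. The depth of 4416650 to 6872420 counts (to 6 digits) limits low members; the floor of 3 counts covers counting error only. Nothing pairs the libraries. A further siKLF5 vehicle sample is not analysed here. The result of 1 gene of the nuclear pore list is not reported here.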

Additional observations from a re-analysis of the deposited data

Results flagged for a closer look

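With R1881, siNFYA and siKLF5 differed in a direct test for 3 members and 1 family sum. NPIPB3 was higher with siNFYA by 0.62 on the log2 scale (SE 0.132, edgeR adjusted p = 0.00667), WASH5P by 0.51 (SE 0.117, adjusted p = 0.0125) and RGPD2 by a fitted 6.38 (adjusted p = 0.0341), which depends on the prior count because RGPD2 had 28.2 counts with siNFYA and 0 with siKLF5. The RGPD2 call was lost in 5 of 6 fits without 1 library, and its near copy RGPD1 lay the other way. The NPIPB sum was higher by 0.32 (SE 0.0905, adjusted p = 0.0468). What these differences come from was not tested.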

How the results depend on the processing

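No paired analysis was possible because no number in the labels is shared between groups. Without retained-intron transcripts, the sign of GOLGA8B turned, to 0.68 (R1881 in control cells), -0.45 (siKLF5, vehicle) and -0.63 (siNFYA, R1881). That of WASH2P turned to 0.19 (R1881 in control cells). None of these turned values passed (edgeR adjusted p of at least 0.248). In the same fits, calls fell to 1 and 3 family sums and 3 and 5 members with siKLF5 (R1881, then vehicle), and 3 sums with siNFYA and R1881. Scaling by library totals turned NBPF12 (-0.0127, R1881 with siKLF5) and the WASH sum (-0.0212 in control cells, -0.0489 with siKLF5), and gave 31 members for R1881 in control cells; without WASHC3, WASHC4 and WASHC5 the WASH sum was -0.0460 in control cells. With limma, 0 members and 0 sums passed with siKLF5 and vehicle, 0 members with siKLF5 and R1881, 6 members and 2 sums with siNFYA and R1881, and 7 members with siNFYA and vehicle. With DESeq2, 0 and 2 sums passed with siKLF5 (R1881, then vehicle) and 16 members for R1881 with siKLF5; it gave no adjusted p for members in siKLF5 against control. With no filter, 5 sums and 17 members passed with siKLF5 and R1881, 3 members in the siNFYA interaction, and 5 (R1881) and 8 (vehicle) between knockdowns. Parted by transcript type, chosen after seeing the data, 9 parts passed with siNFYA and vehicle.

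Leaving out single libraries, member calls ranged over 12 to 21 and 12 to 15 with siNFYA (vehicle, then R1881), 4 to 11 and 4 to 7 with siKLF5, 17 to 21, 19 to 24 and 14 to 19 for R1881 in siNFYA, siKLF5 and control cells, 0 to 1 and 0 to 0 for the siNFYA and siKLF5 interactions, and 0 to 2 and 1 to 3 between knockdowns. Sums ranged over 4 to 5 and 5 to 6 with siNFYA, 3 to 7 and 2 to 3 with siKLF5, and 6 to 8 for R1881 in control cells; transcripts over 1 to 2 and 2 to 3 with siNFYA and 0 to 0 and 0 to 1 with siKLF5. Leaving out an siKLF5 vehicle library leaves 1, assumed to vary like the other groups. Without siNFYA vehicle replicate 1, 12 members passed. The causes were not tested. Copies that share reads and low counts limit single members more than sums.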
